A study of Homo sapiens with 6 samples.

Results

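The genes described here build, move and separate chromosomes in mitosis: kinetochore proteins, spindle checkpoint kinases, spindle assembly factors, cytokinesis proteins, regulators of anaphase onset and condensins. They form a list of 54 gene symbols, matched by name to the 21151 genes of the deposited count table. Each of the 54 was found, and each passed the filter on low counts that left 16353 genes for testing. The list was not chosen by a cut on these measurements, but it was drawn up with earlier results of the same data known.

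The cells were CCD-1064Sk, a line of human fibroblasts from skin that is sold as CRL-2076 and was grown in medium with fetal bovine serum. Lines carrying short hairpins against ZNF469 (shZNF469), a gene for a zinc-finger protein, were set beside lines with a control hairpin (shControl, genotype given as wild type), with 3 RNA sequencing libraries in each group. The series was made to ask what ZNF469 does for the production of extracellular matrix. Its design text calls the 3 libraries of a group technical replicates, so each p-value measures only the spread between those libraries. How many hairpins or separately made lines lie behind each group is not given in the sources used here. No dose or time applies. Total counts per library ran from 35417366 to 48298264.

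A chromosome can be pulled to a pole of the spindle only through its kinetochore, a layered protein plate. Inner kinetochore proteins (the CENP family) sit on centromeric chromatin, and the outer plate, the NDC80 complex above all, grips microtubules. The spindle checkpoint reads unattached kinetochores and holds back the anaphase-promoting complex (APC/C) until each chromosome is attached; separase then cuts cohesin and the sister chromatids part. Most of these genes are transcribed mainly in G2 and mitosis. In resting cells the DREAM complex holds many of them silent through a short promoter element, the cell cycle homology element, while the factor NF-Y binds CCAAT boxes nearby. In cultured fibroblasts their RNA is therefore widely used as a sign of dividing cells.

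As a check of the labels, ZNF469 counts were 1416, 2179 and 1494 with the control hairpin, against 1000, 906 and 750 with the hairpins to ZNF469. Its level went from 42.0 ± 3.70 to 19.4 ± 1.77 CPM (counts per library, scaled so that libraries compare; SD, n = 3), a log2 fold change of -1.12 (SE 0.09, edgeR adjusted p = 0.000873). All log2 fold changes are shZNF469 minus shControl.

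Of the 54 mitotic genes, 45 were lower in the knockdown lines and none was higher, at an adjusted p under 0.05 in edgeR's quasi-likelihood test. Over the 16353 genes tested, 5.34% were called lower and 4.56% higher. All 54 estimates lay below 0, from -2.07 for SPC25 to -0.07 for NCAPD2, with a median of -1.07, a level 2.1-fold lower; the median of all genes tested was 0.00. A call together with a fall of at least 2-fold was made for 28 of the 54 genes, against 0.972% of all genes tested. Each shZNF469 library lay below each shControl library in CPM for 52 of the 54 genes, where 15.7% of all genes tested did so; NUSAP1 and NCAPD2 were the exceptions. DESeq2 called 52 of the 54 lower, with 11.3% of its genes called lower, and limma on log2(TPM + 1) called 38, with 3.22%. In bulk RNA, fewer dividing cells and less RNA of these genes per dividing cell cannot be told apart.

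**Figure D1:**
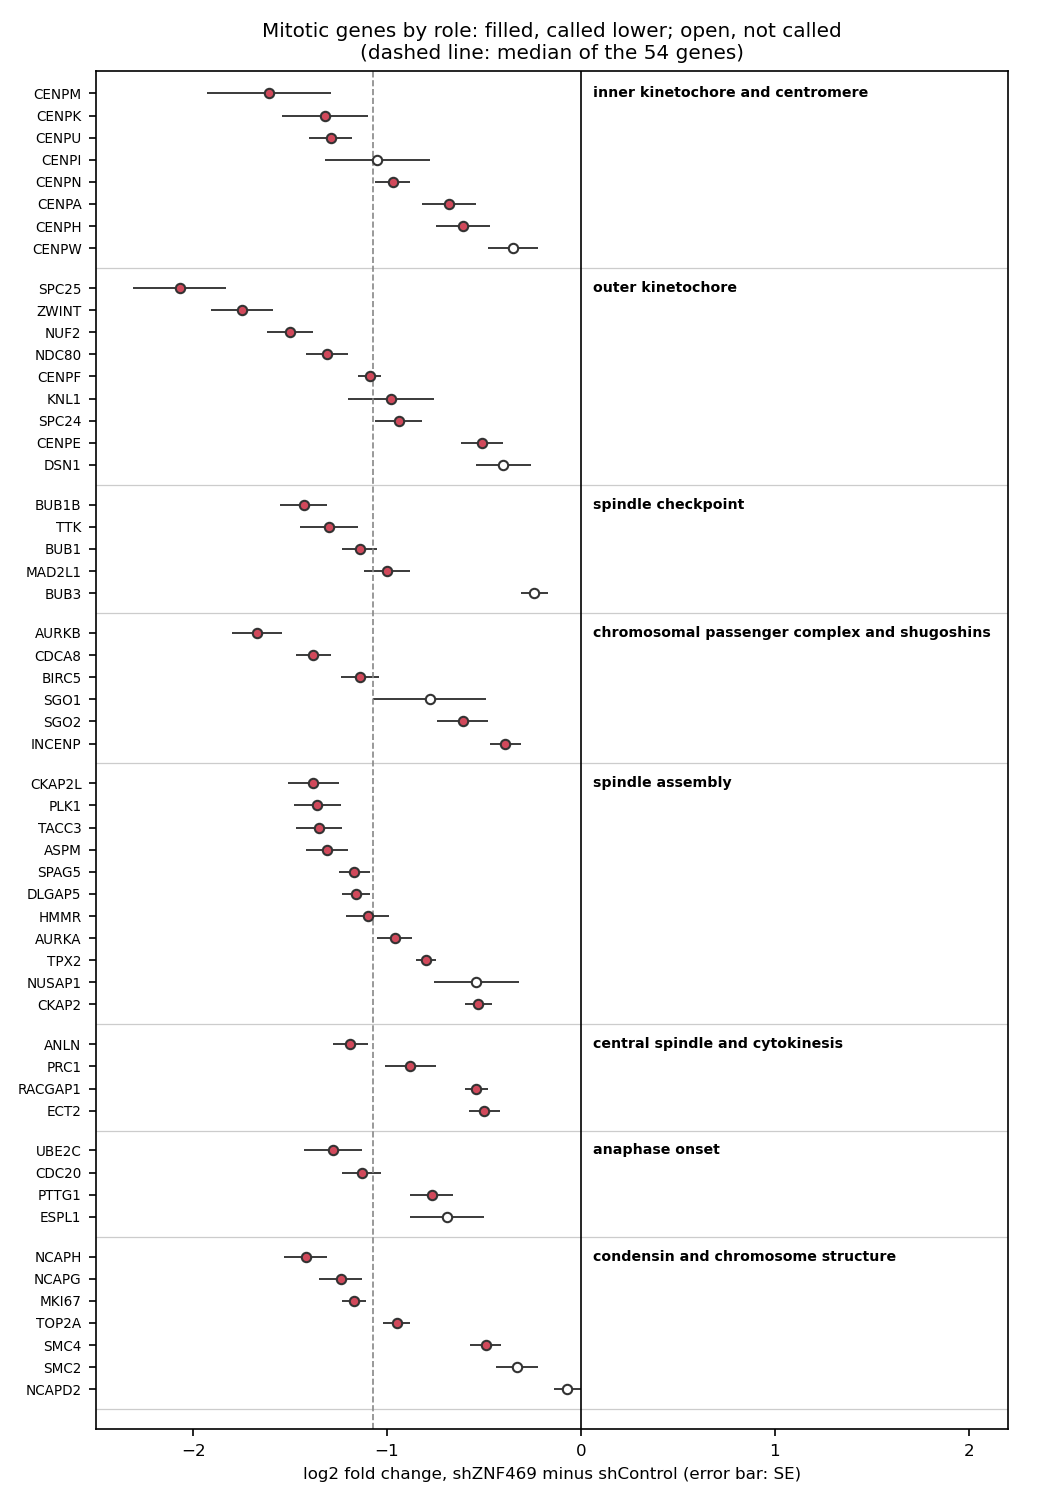
Log2 fold change (shZNF469 minus shControl, horizontal axis) of the 54 mitotic genes, 1 row per gene, grouped by role. Points are edgeR estimates and bars are standard errors; filled points were called lower and open points were not called. All points lie below 0, and in each role the genes are spread over a range instead of sharing 1 value.

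The promoters are shown first, since many of these genes, though not all, are known to carry the same short promoter elements. For each role, the promoter given is that of the gene with the largest fall among those called lower that have 1 window in the RefSeq table (GRCh38.p14). NCAPD2 and CENPW are shown for contrast; of the genes not called that have 1 window, theirs were the estimates closest to 0. Each sequence runs 5′ to 3′ in the direction of the gene, from 100 bases before the start to 25 bases after it. Capitals mark TTTGAA or TTCGAA, the letters of the cell cycle homology element, and CCAAT, the letters of the NF-Y box, each on either strand. The letters of the 2 motifs can overlap, as they do in CDCA8.
CENPK (chr5:65563144-65563268, minus strand): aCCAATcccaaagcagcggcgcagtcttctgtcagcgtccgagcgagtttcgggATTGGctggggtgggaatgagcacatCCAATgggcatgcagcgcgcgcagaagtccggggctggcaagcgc
SPC25 (chr2:168890406-168890530, minus strand): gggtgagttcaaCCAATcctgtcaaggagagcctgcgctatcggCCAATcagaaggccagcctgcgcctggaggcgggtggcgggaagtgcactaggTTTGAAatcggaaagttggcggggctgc
BUB1B (chr15:40160969-40161093, plus strand): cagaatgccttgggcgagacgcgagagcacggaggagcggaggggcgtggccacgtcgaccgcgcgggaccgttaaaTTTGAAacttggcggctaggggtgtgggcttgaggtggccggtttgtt
CDCA8 (chr1:37692416-37692540, plus strand): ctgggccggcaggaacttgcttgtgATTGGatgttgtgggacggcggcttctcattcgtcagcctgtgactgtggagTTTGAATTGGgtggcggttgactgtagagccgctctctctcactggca
CKAP2L (chr2:112764585-112764709, minus strand): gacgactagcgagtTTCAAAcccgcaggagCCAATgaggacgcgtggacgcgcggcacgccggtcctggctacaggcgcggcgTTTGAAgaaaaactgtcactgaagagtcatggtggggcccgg
ANLN (chr7:36389762-36389886, plus strand): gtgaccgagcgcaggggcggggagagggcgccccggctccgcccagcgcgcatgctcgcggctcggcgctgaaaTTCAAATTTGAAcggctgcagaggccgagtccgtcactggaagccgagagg
CDC20 (chr1:43358881-43359005, plus strand): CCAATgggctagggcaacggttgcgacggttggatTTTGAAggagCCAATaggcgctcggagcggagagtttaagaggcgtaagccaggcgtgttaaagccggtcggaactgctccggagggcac
NCAPH (chr2:96335666-96335790, plus strand): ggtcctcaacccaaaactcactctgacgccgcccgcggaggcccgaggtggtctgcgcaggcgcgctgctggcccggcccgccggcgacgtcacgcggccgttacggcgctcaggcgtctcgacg
NCAPD2 (chr12:6494002-6494126, plus strand): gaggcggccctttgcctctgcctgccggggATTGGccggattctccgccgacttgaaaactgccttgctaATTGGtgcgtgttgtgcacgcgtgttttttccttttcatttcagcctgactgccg
CENPW (chr6:126340015-126340139, plus strand): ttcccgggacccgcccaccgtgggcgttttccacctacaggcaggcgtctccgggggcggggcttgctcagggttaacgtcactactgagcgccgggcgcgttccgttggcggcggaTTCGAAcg

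Positions are counted from the start of the gene, with the first base of the transcript as 1 and the base before it as -1. In SPC25, which had the largest fall of all 54 genes, a homology element lies at -3 and CCAAT boxes at -88 and -56. BUB1B and CDCA8 both have the element at -23, and ANLN has copies on opposite strands side by side at -26 and -20. CENPK holds 3 CCAAT boxes at -99, -46 and -20 and no homology element between -100 and 25. NCAPH fell by 1.42 on the log2 scale and holds neither set of letters there. Neither NCAPD2 nor CENPW was called. In the printed sequences, NCAPD2 has CCAAT boxes at -70 and -30 and CENPW has an element at 18. Further upstream, beyond the printed bases, NCAPD2 also has a homology element at -145 and CCAAT boxes at -199 and -170. CENPW has CCAAT boxes there at -224 and -202, and NCAPH has a box at -112. SPC25 and CDC20 have further elements there at -247 and -178, and CDCA8 and CKAP2L further CCAAT boxes at -115 and -185. A match is a match of letters, not a bound site, and its absence says only that these letters are not in the window searched.

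Over the wider RefSeq window, from 250 bases before to 50 bases after the start, 44 of the 54 genes had a sequence. The homology element letters occurred in 32 of the 44 (72.7%), against 1726 of 11251 tested genes with a window (15.3%) and 19.5% of all 27305 genes in the promoter table. CCAAT occurred in 31 (70.5%), against 42.5% of tested genes. Both motifs were present in 24 (54.5%), against 8.15% of tested genes. The letters of E2F sites, TTTGGCGC or TTTCCCGC on either strand, occurred in 2 (4.55%), close to the 4.46% of tested genes. UBE2C, TTK, CENPH, AURKA, KNL1, CENPM, RACGAP1, TPX2, BIRC5 and BUB3 had no entry. The letters were not particular to the 54 genes. Of other spindle and cytokinesis genes, a list described below, 55.6% of those with a window held the element and 51.9% both motifs. Of other kinetochore genes 41.7% held the element and 20.8% both motifs. The element was in 40% of regulators of mitotic transcription, 29.4% of APC/C genes, 27.3% of cohesin genes and 2 of 2 condensin II genes.

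Within the mitotic genes, the presence of the element, as TTTGAA or TTCGAA, went with little difference in the size of the fall. The 32 genes with it had a median log2 fold change of -1.12, and 26 of them were called lower. Without it, 12 genes had a median of -0.99 and 10 were called lower. Among genes called lower 72.2% held the element, and among those not called 75% did (6 of 8). With TTTGAA alone the differences were larger. The 29 genes with it had a median of -1.13 (86.2% called lower), and the 15 without it had -0.94 (73.3%). TTTGAA was held by 69.4% of the genes called lower and 50% of those not called. Across all tested genes with a window, 9.27% of those with the element were called lower, against 5.46% of those without. The mitotic genes are part of both sets, as 26 of the 160 called with the element and 10 of the 520 called without it. These shares are descriptions, with no test.

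Many matches lay close to the start. Of the 51 windows of the mitotic genes, 25.5% had a homology element beginning between -25 and -1, 13.7% between -50 and -26, and 17.6% between 1 and 25. In windows of tested genes these shares were 0.905%, 0.978% and 1.06%. CCAAT was most frequent further upstream, between -75 and -51, in 39.2% of the windows against 9.3% of those of tested genes. Tested genes also had their highest CCAAT share in this bin, so the position is not particular to the mitotic genes. In the narrower window from 100 bases before the start, the element was found in 65.9% of the mitotic genes and 6.66% of tested genes.

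**Figure D2:**
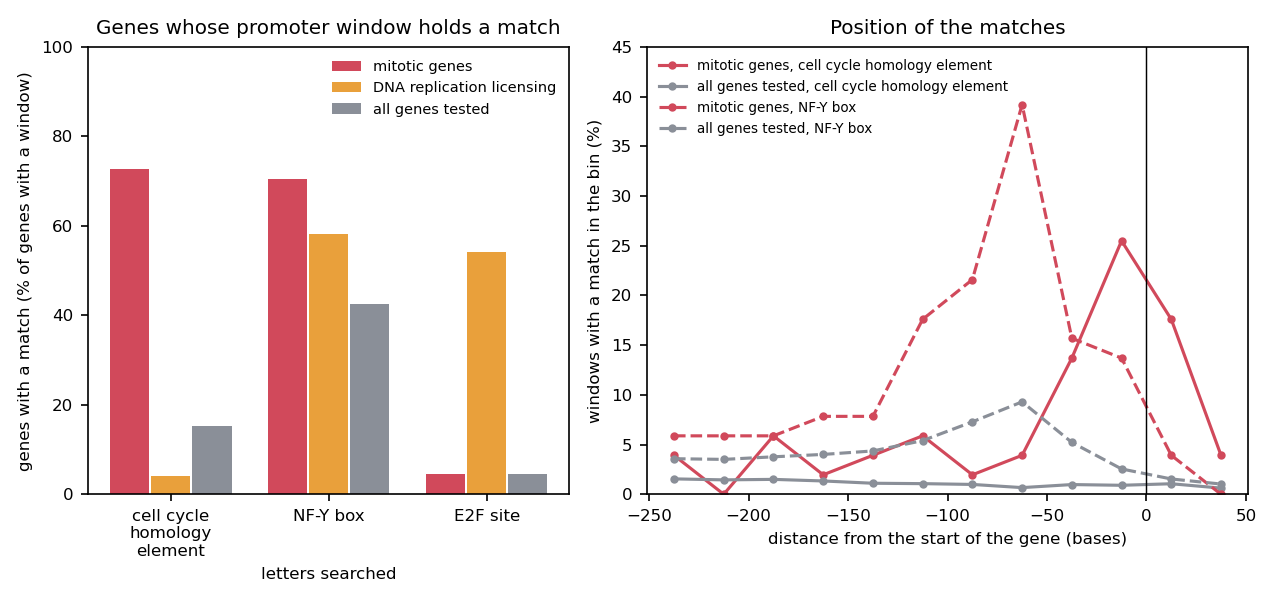
Left, share of genes (%) whose 300-base promoter window holds the letters of each element, for the mitotic genes, the DNA replication genes and all genes tested. Right, share of windows (%) with a match in each 25-base bin, by distance from the start in bases; the mitotic genes peak just before the start for the homology element and further upstream, between -75 and -51, for the NF-Y box.

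At the inner kinetochore, the proteins that mark the centromere and anchor the plate to it, 6 of 8 genes were called lower, with a median log2 fold change of -1.01. CENPM, a subunit of the constitutive centromere-associated network, had 3.62, 4.33 and 3.42 CPM in the controls, against 1.63, 0.686 and 1.43 CPM in the knockdown. The knockdown libraries were all lower, without overlap. This was the largest fall of the role (log2 fold change -1.61, SE 0.32, edgeR adjusted p = 0.0235). CENPI, which works in one complex with CENPH and CENPK, had 8.2, 6.98 and 6.23 CPM in the controls, against 3.56, 4.64 and 2.12 CPM in the knockdown. Its libraries did not overlap, yet they were widely spread and it missed the threshold (log2 fold change -1.05, SE 0.27, edgeR adjusted p = 0.0526). CENPW, a histone-fold protein that pairs with CENPT and the gene of the role with the highest mean TPM, had 5.73, 7.15 and 6.76 CPM against 5.46, 4.58 and 5.41 CPM. The groups were separated by a narrow gap, and the estimate of -0.35 (SE 0.13, edgeR adjusted p = 0.156) was not called.

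The other inner kinetochore genes were all called lower. CENPK had a log2 fold change of -1.32, CENPU, which recruits the kinase PLK1, -1.29, and CENPN, which reads the centromeric nucleosome, -0.97. CENPA, the histone H3 variant that defines the centromere, had -0.68 and CENPH had -0.61. The calls of CENPA, CENPH, CENPK and CENPM were not stable, with adjusted p up to 0.107, 0.14, 0.0595 and 0.0888 over the alternatives. These highest values came with 1 library left out. Over all genes, the count called was 1619 with all libraries and 548 to 1623 with 1 left out. Whether the losses come from having fewer libraries or from single libraries was not tested. All 4 calls were lost without shControl 1 and without shZNF469 1. In addition, CENPA lost its call without shControl 2, shControl 3 or shZNF469 2, CENPH without shControl 3 or shZNF469 3, CENPK without shControl 3, and CENPM without shControl 2, shControl 3 or shZNF469 3. CENPI was called without shZNF469 2 (adjusted p = 0.03).

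At the outer kinetochore 8 of 9 genes were called lower, with a median of -1.09. SPC25 (chromosome 2, 168861521 to 168890430), a subunit of the NDC80 complex, had 3.28, 3.01 and 3.8 CPM in the controls, against 0.771, 0.646 and 0.984 CPM in the knockdown. All 3 knockdown libraries were far below the lowest control. The level was 4.2-fold lower, 23.8% of the control mean (log2 fold change -2.07, SE 0.24, edgeR adjusted p = 0.0033). Its partners in the complex were called lower as well: NUF2 by a log2 fold change of -1.50, NDC80 by -1.31 and SPC24 by -0.94. ZWINT, which ties the checkpoint machinery to the plate, had -1.75, the next largest fall of the 54 genes.

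KNL1, the scaffold on which BUB proteins gather, had a log2 fold change of -0.98, and CENPF, a large protein of the corona, -1.09. CENPE, a kinesin that carries chromosomes to the spindle equator, had -0.51. DSN1, a subunit of the MIS12 complex that links the inner to the outer plate, had 12, 10.3 and 9.92 CPM in the controls, against 6.83, 9.4 and 8.1 CPM in the knockdown. The highest knockdown library came close to the lowest control, and in the authors' TPM the groups overlapped. DSN1 was not called (log2 fold change -0.40, SE 0.14, edgeR adjusted p = 0.127). The calls of CENPE and KNL1 were lost without shControl 1, shControl 2, shZNF469 1 or shZNF469 3, and that of CENPE also without shControl 3 (adjusted p up to 0.166 and 0.156 over the alternatives). With limma on the authors' TPM neither CENPE nor KNL1 was called.

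**Figure D3:**
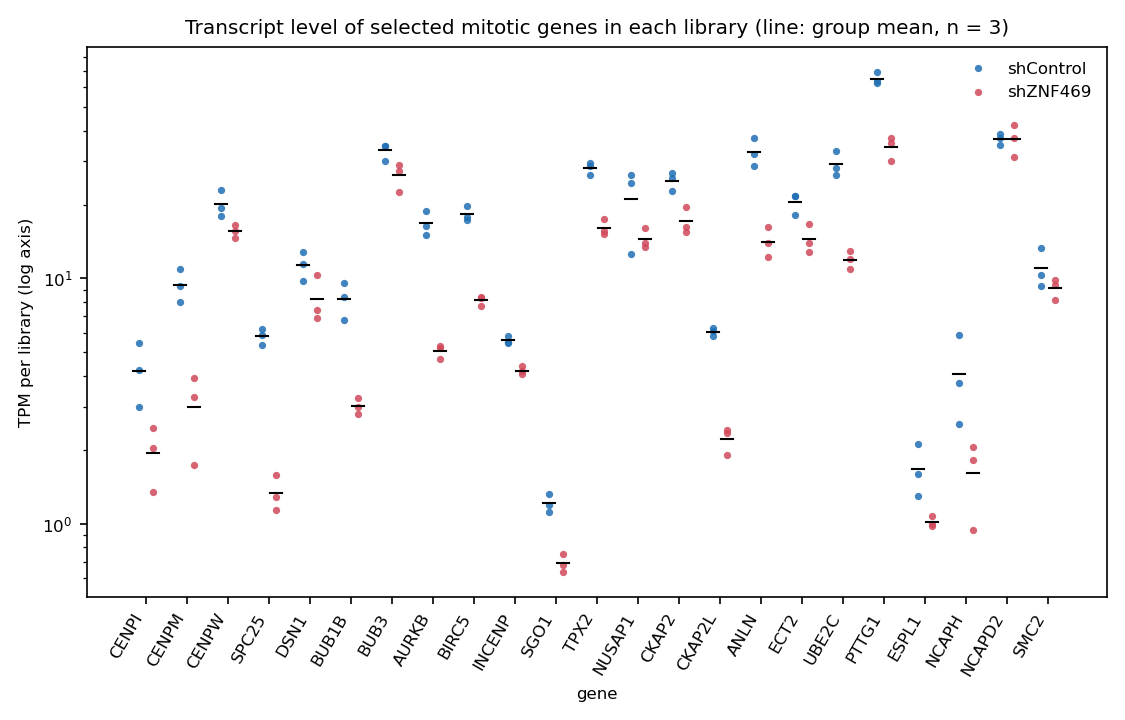
TPM in each library (log axis) of the mitotic genes given with values of every library; blue points are shControl libraries, red points shZNF469 libraries and bars the group means. The groups are apart for most genes, and those of NCAPD2, NUSAP1, DSN1 and SMC2 overlap.

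Among the 5 spindle checkpoint genes 4 were called lower, with a median of -1.14. BUB1B (chromosome 15, 40161069 to 40221123), which codes for BUBR1, the protein that binds and restrains CDC20, had 14.7, 12.9 and 11.3 CPM in the controls, against 4.76, 4.9 and 4.75 CPM in the knockdown. The 3 knockdown libraries lay almost on one value, 2.69-fold below the mean of the controls (log2 fold change -1.43, SE 0.12, edgeR adjusted p = 0.000873). The checkpoint kinases TTK (-1.30) and BUB1 (-1.14) and the CDC20 inhibitor MAD2L1 (from 15.4 ± 1.39 to 7.68 ± 0.983 CPM) were called too. BUB3, the binding partner of BUB1 and BUBR1, had 68.1, 68 and 64.2 CPM against 51.4, 61 and 57.3 CPM. Its groups did not overlap, but its estimate was small (log2 fold change -0.24, SE 0.07, edgeR adjusted p = 0.0852); without shZNF469 2 it was called (adjusted p = 0.0486).

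The chromosomal passenger complex corrects wrong attachments, and shugoshins guard centromeric cohesin; 5 of these 6 genes were called lower, with a median of -0.96. AURKB (chromosome 17, 8204731 to 8210575), the kinase of the complex, had 7.55, 7.98 and 9.81 CPM in the controls, against 2.66, 2.66 and 2.66 CPM in the knockdown. The 3 knockdown libraries were equal to the digits shown, far below the lowest control. Its level was 3.17-fold lower in the fit (log2 fold change -1.67, SE 0.13, edgeR adjusted p = 0.000823). BIRC5, which codes for survivin and targets the complex to centromeres, had 21.2, 18.8 and 20.9 CPM against 8.63, 8.8 and 10.2 CPM. The groups were again well apart (log2 fold change -1.14, SE 0.10, edgeR adjusted p = 0.000875), and CDCA8, which codes for borealin, had -1.38.

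INCENP, the scaffold that binds these 3 proteins, had 14.6, 15.7 and 16 CPM in the controls, against 11.4, 11.5 and 12.4 CPM in the knockdown. The groups did not overlap, and the estimate was the closest to 0 of the 6 (log2 fold change -0.39, SE 0.08, edgeR adjusted p = 0.0252). SGO1 was the least abundant of the 54 genes in the controls, at a mean of 1.21 TPM, with 1.71, 1.44 and 1.68 CPM against 0.921, 0.807 and 1.08 CPM. Its libraries did not overlap and it was not called (log2 fold change -0.78, SE 0.29, edgeR adjusted p = 0.154); SGO2 was called at -0.61. The calls of INCENP and SGO2 were lost when any of the 3 shControl libraries, shZNF469 1 or shZNF469 2 was left out (adjusted p up to 0.164 and 0.104 over the alternatives). With limma on the authors' TPM neither was called.

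Spindle assembly factors were the largest role, with 10 of 11 genes called lower and a median of -1.16. CKAP2L, a protein of spindle microtubules, had 12, 12.4 and 11.1 CPM in the controls, against 3.92, 4.52 and 5.24 CPM in the knockdown. This was the largest fall of the role (log2 fold change -1.38, SE 0.13, edgeR adjusted p = 0.00131). TPX2, which switches on the kinase AURKA and nucleates microtubules, had 42.8, 41.9 and 41.3 CPM against 23.5, 24.8 and 24.3 CPM. Libraries of a group were close together for TPX2, and its estimate was precise (log2 fold change -0.80, SE 0.05, edgeR adjusted p = 0.000492). CKAP2, a microtubule-binding protein related to CKAP2L, had 38.1, 38.9 and 36 CPM against 25.1, 28.3 and 24.8 CPM. The groups were apart, with a smaller estimate (log2 fold change -0.53, SE 0.07, edgeR adjusted p = 0.00521).

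The kinases PLK1 and AURKA had log2 fold changes of -1.36 and -0.96. TACC3, which bundles kinetochore fibres, had -1.35, ASPM, which focuses spindle poles, -1.31, and SPAG5, a pole and kinetochore protein, -1.17. DLGAP5 and HMMR, both of which stabilise spindle microtubules, had -1.16 and -1.10. NUSAP1, a microtubule-bundling protein, had 25, 23.9 and 13.3 CPM in the controls, against 13.9, 14.4 and 14.4 CPM in the knockdown. The shControl 3 library lay with the knockdown libraries and the other 2 controls well above them, and the gene was not called (log2 fold change -0.54, SE 0.22, edgeR adjusted p = 0.176). Without shControl 3 the estimate was -0.78 and the gene was called (adjusted p = 0.00649). The same library was low in the authors' TPM, with 26.3, 24.5 and 12.6 in the controls, against 14, 16 and 13.4 in the knockdown.

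All 4 genes of the central spindle and cytokinesis were called lower, with a median of -0.71. ANLN (chromosome 7, 36389862 to 36453791), which codes for anillin, a scaffold of the contractile ring, had 72.8, 63.3 and 61.7 CPM in the controls, against 28.6, 31.2 and 26.6 CPM in the knockdown. Its level fell from rank 5 of the 54 genes in mean TPM to rank 14 (log2 fold change -1.19, SE 0.09, edgeR adjusted p = 0.000601). ECT2, the exchange factor that activates RhoA at the equator, had 37.5, 36.7 and 33.7 CPM against 24.4, 27.6 and 24.2 CPM. The groups were apart, and the fall was the smallest of the role (log2 fold change -0.50, SE 0.08, edgeR adjusted p = 0.00871). PRC1, which cross-links antiparallel microtubules, had -0.88, and RACGAP1, a subunit of centralspindlin, had -0.54. The call of ECT2 was lost without shControl 1 or shZNF469 1 (adjusted p = 0.0553 and 0.0523) and with limma on the authors' TPM (0.0593 and 0.0671 with pseudocounts of 1 and 0.1).

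At anaphase onset 3 of 4 genes were called lower, with a median of -0.95. UBE2C, the ubiquitin-conjugating enzyme of the APC/C, had 9.15, 8.93 and 11.8 CPM in the controls, against 3.75, 3.87 and 4.68 CPM in the knockdown. It had the largest fall of the role (log2 fold change -1.28, SE 0.15, edgeR adjusted p = 0.00343), and CDC20, the APC/C activator, had -1.13. PTTG1, which codes for securin, the inhibitor of separase, had the highest mean TPM of all 54 genes: 69.4, 62.3 and 63.8 TPM in the controls, against 30, 35.6 and 37.5 TPM in the knockdown. In the counts its estimate was -0.77 (SE 0.11, edgeR adjusted p = 0.00615). Near-identical relatives of PTTG1 exist in the genome, and how reads shared with them were assigned is not given in the sources used here. ESPL1, separase itself, had 4.41, 5.9 and 3.9 CPM against 3.08, 2.64 and 3.08 CPM. Its groups did not overlap, and it was not called (log2 fold change -0.69, SE 0.19, edgeR adjusted p = 0.0598), but DESeq2 called it (adjusted p = 0.00519).

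Condensin I and the proteins that shape mitotic chromosomes held both large falls and the smallest change: 5 of 7 genes were called lower, with a median of -0.95. NCAPH, the kleisin that closes the condensin I ring, had 7.69, 7.89 and 6.95 CPM in the controls, against 2.85, 2.91 and 2.63 CPM in the knockdown. The libraries of each group were close together (log2 fold change -1.42, SE 0.11, edgeR adjusted p = 0.000823). The authors' TPM of NCAPH were more spread, at 5.88, 3.76 and 2.55 against 1.81, 2.06 and 0.938, and limma on log2(TPM + 1) did not call it (adjusted p = 0.0828). NCAPG, another subunit of condensin I, had -1.24.

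NCAPD2 (chromosome 12, 6494102 to 6531955), the third non-SMC subunit of condensin I, had 77.9, 74.1 and 73.8 CPM in the controls, against 77.3, 69.3 and 68.2 CPM in the knockdown. The groups overlapped, with an estimate of -0.07 (SE 0.07, edgeR adjusted p = 0.59), and no alternative called it. SMC2, one of the ATPase arms of the ring, had 26, 25.4 and 23.9 CPM against 19.1, 23 and 17.5 CPM. It was not called (log2 fold change -0.33, SE 0.11, edgeR adjusted p = 0.096), though it was without shZNF469 2 (adjusted p = 0.0186). SMC4, the other arm, had -0.49, and this call was lost without shControl 1, shControl 2 or shZNF469 1 (adjusted p up to 0.0684). TOP2A, the topoisomerase that untangles sister chromatids, had -0.95, and MKI67, whose protein Ki-67 coats mitotic chromosomes, had -1.17.

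Genes whose proteins share a complex did not all move by the same amount, so ratios of counts were taken within each library for 8 pairs, chosen after their values had been seen. AURKB to INCENP was 0.518, 0.508 and 0.615 in the controls, against 0.234, 0.232 and 0.214 in the knockdown. BUB1B to BUB3 went from 0.193 ± 0.02 to 0.0853 ± 0.00635, and NCAPH to NCAPD2 from 0.0998 ± 0.00623 to 0.0391 ± 0.00256 (SD, n = 3). In each of these pairs the ratio was lower in every knockdown library than in every control library, free of scaling between libraries. The same held for NCAPG to NCAPD2, for SPC25 to SPC24 (0.508 ± 0.0649 to 0.23 ± 0.033), for CENPK to CENPH and for AURKB to AURKA, each without overlap. NUF2 to NDC80 overlapped between the groups, at 0.766 ± 0.145 and 0.671 ± 0.0962 (exact two-sided permutation p = 0.5). The other 7 ratios gave an exact permutation p of 0.1, the smallest that 3 against 3 libraries allow (0.114 after Benjamini-Hochberg adjustment over the 8). Since the pairs were chosen by then known values, these p-values are descriptions and lend no support. The adjustment does not cover the pairs passed over.

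Control levels of the 54 genes ran from 1.21 TPM for SGO1 to 65.2 TPM for PTTG1. After PTTG1 came SMC4 at 39.8, NCAPD2 at 37.1, BUB3 at 33.2 and ANLN at 32.8 TPM. Of the 53 neighbouring pairs in this order, 50 overlapped between their control libraries, so the order is loose. NCAPD2 moved from rank 3 to rank 1 in the knockdown. The genes were also split by mean TPM over all 6 libraries, not by the control level. The 27 genes of lower mean TPM had a median log2 fold change of -1.17 (24 called lower), and the 27 of higher mean TPM had -0.88 (21 called lower). A gene's own fall lowers its mean, so this split cannot show how the fall relates to the level.

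By library, the summed TPM of the 54 genes was 886, 859 and 796 in the controls, against 461, 504 and 433 in the knockdown. The group means were 847 ± 46.2 and 466 ± 35.6 TPM (SD, n = 3), or 55% of the control level, and no knockdown library came near a control. Relative to the log2 mean of the controls, the median gene stood at 0.03, -0.01 and -0.02 in the control libraries and at -1.05, -1.04 and -1.04 in the knockdown libraries. The 3 knockdown libraries were thus almost equal in the median gene. They differed in detail: shZNF469 2 was the highest of its group for 28 of the 54 genes, and shControl 1 for 27.

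**Figure D4:**
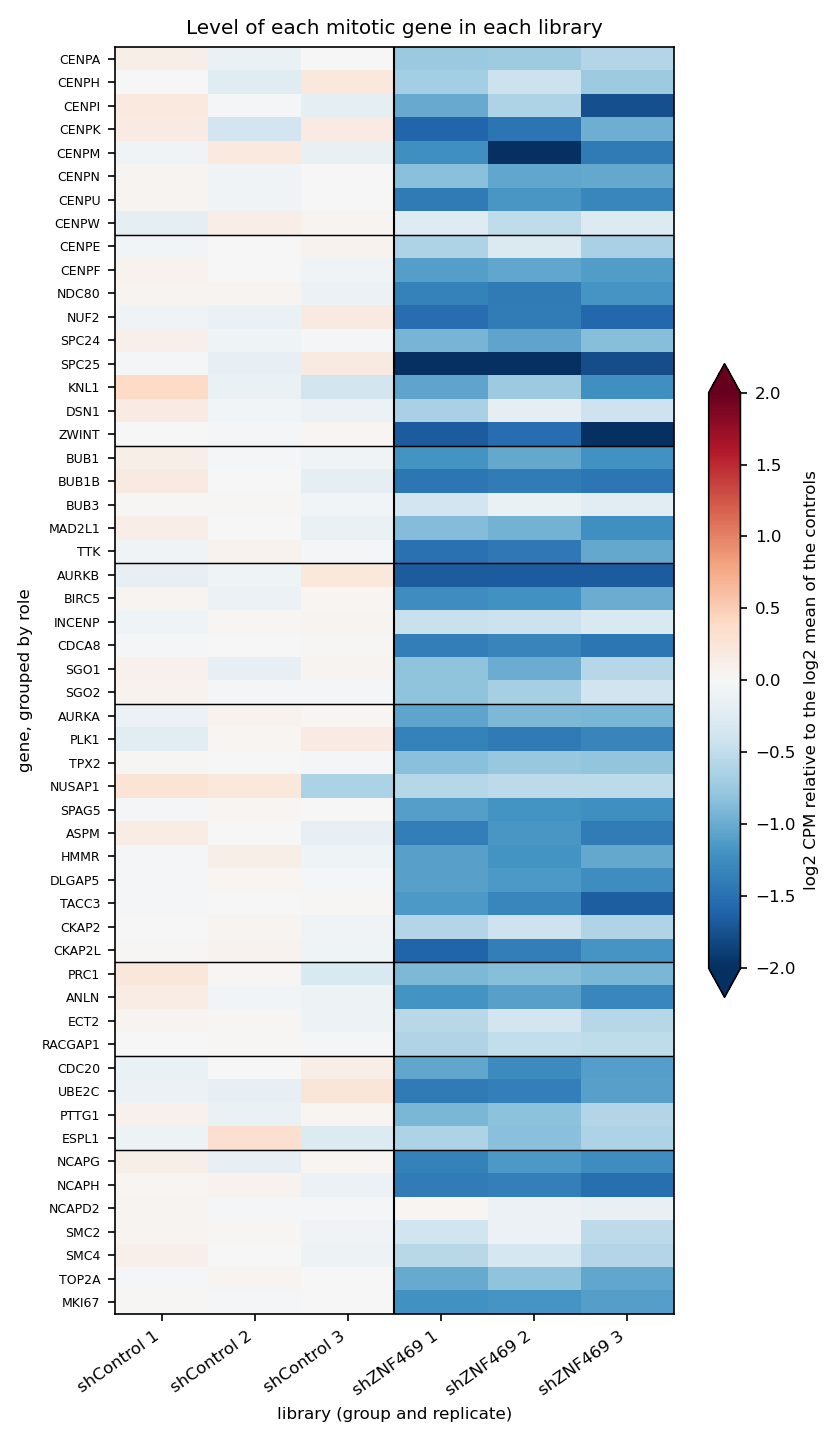
Log2 CPM of each mitotic gene (rows, grouped by role) in each library (columns), relative to the log2 mean of the 3 shControl libraries; red is higher, blue lower, and the colour scale ends at -2 and 2. The 3 shZNF469 columns are blue in nearly all rows, NCAPD2 stays pale, and NUSAP1 is already blue in shControl 3.

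Other genes of the same machinery, from lists written out without these 54 genes, were tested in the same fit. Of 28 other kinetochore genes 11 were called lower and none higher, with a median of -0.39. TRIP13, the ATPase that disassembles checkpoint complexes, had the lowest p, going from 13.2 ± 0.832 to 5.55 ± 0.193 CPM (log2 fold change -1.25, edgeR adjusted p = 0.000638). CENPB, which binds centromeric repeats, had the highest mean CPM of the list and was called at -0.24. The count for these 28 genes was 3, 5 and 5 without shControl 1, 2 and 3, and 5 and 7 without shZNF469 1 and 2.

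Of 30 other spindle and cytokinesis genes 15 were called lower and 1 higher, with a median of -0.40. KIF20A, a kinesin of the central spindle, went from 32.6 ± 1.71 to 14.9 ± 0.465 CPM (log2 fold change -1.13, edgeR adjusted p = 0.000297). The gene called higher was NUMA1, which anchors spindle poles and also has a role in interphase nuclei, from 270 ± 13.3 to 336 ± 18.6 CPM (log2 fold change 0.31, edgeR adjusted p = 0.0218). This call was lost without any of the 3 control libraries, without shZNF469 1 and in the authors' TPM.

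The APC/C and cohesin also act outside mitosis. The medians of their genes lay near 0, and a link between these points was not tested. Of 17 genes for APC/C subunits and regulators 3 were called lower, with a median of -0.09; FBXO5, an APC/C inhibitor, had the lowest p (log2 fold change -0.94, edgeR adjusted p = 0.00377), and the count was 1 without any of the 3 shControl libraries or shZNF469 1. CDC27, which had the highest CPM of the list averaged over the 6 libraries, by a narrow margin over ANAPC5, had -0.05 (edgeR adjusted p = 0.79). Of 14 cohesin genes 2 were called lower, with a median of -0.02: SMC1A had -0.69, while RAD21, the kleisin that separase cuts, had -0.19 and was not called (edgeR adjusted p = 0.0807). The count for cohesin was 3 without shZNF469 2 or 3. In condensin II, NCAPG2 was called (-0.78) and the other 2 genes were not; without shControl 3 the count was 2.

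Of 24 regulators of mitotic transcription, 11 were called lower and 1 higher, with a median of -0.47. CCNA2, which codes for cyclin A2, went from 22.3 ± 1.15 to 9.92 ± 0.248 CPM (log2 fold change -1.17, edgeR adjusted p = 0.000461). CDKN1A, which codes for the cell cycle inhibitor p21, was the gene called higher, from 475 ± 13.5 to 640 ± 24.2 CPM (log2 fold change 0.43, edgeR adjusted p = 0.00251). MYBL2 and FOXM1, activators of mitotic promoters that were picked out after their values had been seen, went from 12.2 ± 0.473 to 2.18 ± 0.579 CPM and from 30.3 ± 0.618 to 18.7 ± 2.96 CPM (log2 fold changes -2.48 and -0.70). The count of regulators called lower was 7 without shControl 1. Over the 116 genes of these pathway lists together, 43 were called lower and 2 higher, with a median of -0.25.

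Genes that license and copy DNA act earlier in the cycle, in G1 and S phase, and they were lower as well. Of 27 such genes 23 were called lower and none higher, with a median of -1.04, against -1.07 for the mitotic genes. The count called lower was 17, 17 and 18 without shControl 1, 2 and 3, and 18, 22 and 20 without shZNF469 1, 2 and 3. FEN1, the flap endonuclease, had a log2 fold change of -1.45 (edgeR adjusted p = 0.00056), and PCNA, the replication clamp, had -0.62 (edgeR adjusted p = 0.0125). Their promoters differed in the homology element, found in 1 of 24 (4.17%), and in the E2F site letters, found in 13 of 24 (54.2%). The mitotic genes had 72.7% and 4.55%. CCAAT was frequent in both, in 14 of 24 (58.3%) of the DNA replication genes and 70.5% of the mitotic genes.

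**Figure D5:**
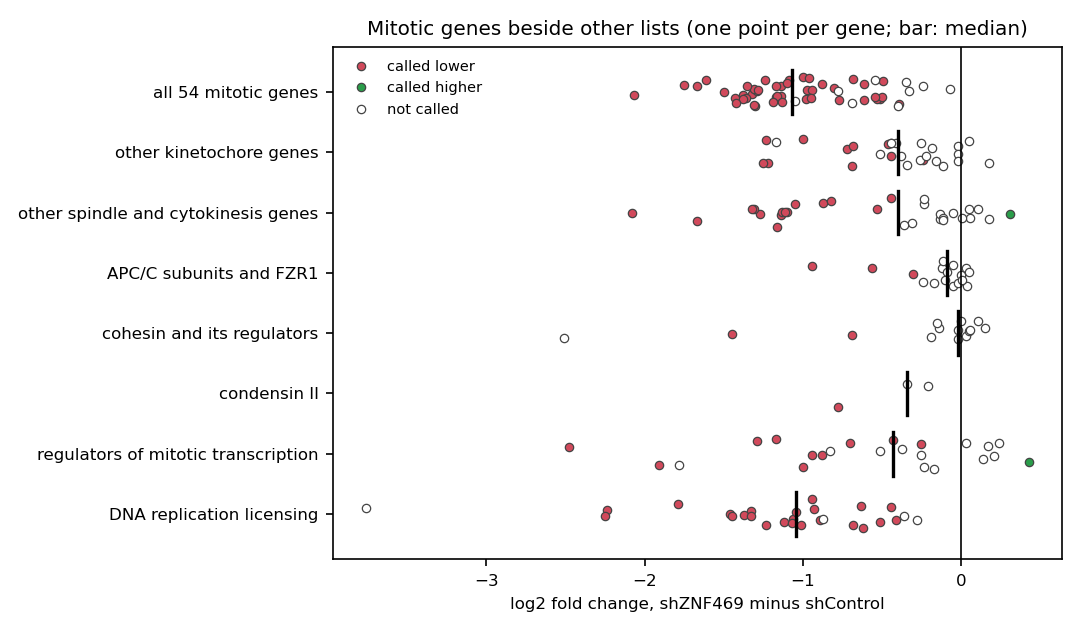
Log2 fold change (horizontal axis) of the mitotic genes and of each other list, 1 point per gene, with a bar at the median; filled red points were called lower, filled green points called higher and open points not called. A gene at 0 TPM in all knockdown libraries is left out; the mitotic and the DNA replication genes are centred near -1, and the APC/C and cohesin lists near 0.

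The fibroblast label was met: all 12 dermal fibroblast markers were in the table, with a summed level of 32557 to 35175 TPM in the controls, against 25677 to 27262 TPM in the knockdown. Of these markers the collagen genes COL1A1, COL1A2 and COL3A1 were called lower and VIM higher (log2 fold change 0.32; not called without shControl 1, shControl 2 or shZNF469 1), and the list's median was 0.06. Of 8 keratinocyte markers 2 were listed, and KRT5, KRT14, KRT1, DSG3, TP63 and CDH1 were not (summed 24.9 to 28.8 and 18.5 to 19.7 TPM). Of the 2 listed, 1 was called lower, a call lost without shControl 2, shControl 3 or shZNF469 1. Of 7 melanocyte markers 2 were listed, and MLANA, TYR, TYRP1, DCT and SOX10 were not (38 to 42.4 and 51.3 to 62.6 TPM); of the listed ones PMEL was called higher (log2 fold change 1.01, edgeR adjusted p = 0.000525) and MITF was not called. Of 6 endothelial markers 3 were listed (0.904 to 1.66 and 0.55 to 1.35 TPM), of 7 leukocyte markers 2 (172 to 195 and 204 to 245 TPM, nearly all CD68), and of 7 smooth muscle and pericyte markers 6 (161 to 168 and 143 to 158 TPM). Of the 6 listed smooth muscle and pericyte markers 1 was called lower, a call lost without any of the 3 shControl libraries. No endothelial or leukocyte marker was called. Mitochondrial transcripts moved with the groups, from 77207 to 81430 TPM in the controls to 90430 to 95530 TPM in the knockdown, and 5 of 13 were called higher (3 when any library but shZNF469 2 was left out, 7 without that one). The part of these differences in the fall of the mitotic genes was not tested.

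Reads of overlapping genes are a further limit. In GENCODE release 29, 17 of the 54 genes have an exon that overlaps a gene on the opposite strand, 5 overlap one on the same strand, and 15 have a named pseudogene. The strand setting of the counting is not given in the sources used here, so the values of those genes may include reads of their neighbours. NCAPD2 is among them, with MRPL51 on the opposite strand and a named pseudogene. So are NUSAP1, with a neighbour on the same strand, BUB3, with a named pseudogene, and genes called lower such as ANLN.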

How the data were processed

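RNA of 6 libraries was sequenced, 3 shControl and 3 shZNF469. Per the submitters' processing notes, HISAT2, StringTie and GRCh38.p14 were used; tool versions, the annotation and the strand setting are not stated in those notes. The authors' table gives each gene a raw count for every library. It also gives the TPM, a level scaled for transcript length, as the authors computed it. From the deposited counts, edgeR 4.0.16 (R 4.3.3) kept 16353 of 21151 genes (filterByExpr, minimum count 10), scaled libraries by TMM and ran the quasi-likelihood F-test, two-sided and with no covariate; p-values were adjusted by Benjamini-Hochberg over all genes tested, and a gene was called at an adjusted p under 0.05. CPM are TMM-scaled. The standard error of a log2 fold change came from the estimate and its F statistic. The fit was tested on simulated data. Alternatives were DESeq2 1.42.0, limma 3.58.1 on log2(TPM + 1) and log2(TPM + 0.1), other scalings and filters, a replicate block, and each library left out.

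The members, roles and lists were chosen with earlier results of these data known. Per role, values of every library are given for the gene with the highest mean TPM, the largest and the smallest log2 fold change, and each gene not called; of each other list, the genes with the lowest p and the highest mean CPM may be named. Promoter windows are RefSeq's, on GRCh38.p14; a gene with several windows was counted as matching if any window matched.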

Additional observations from a re-analysis of the deposited data

How the results depend on the processing

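None of the 54 mitotic genes was called higher, and no estimate changed sign, under any of the 14 alternatives. Of the 756 values, 681 kept their side of the threshold, 62 lost and 13 gained a call. In all, 34 of the 45 calls held throughout, 10 were lost when 1 library was left out, and that of NCAPH was lost in the TPM alone; 7 of the 9 genes not called were called by DESeq2, and CENPW and NCAPD2 by none. The count called lower was 52 with DESeq2 (11.3% of its genes), 38 and 36 with limma on log2(TPM + 1) and log2(TPM + 0.1) (3.22% and 2.83%), and 35 to 45 with 1 library left out. The median log2 fold change was -0.93 and -1.09 with the TPM and pseudocounts of 1 and 0.1, and -1.12 to -1.02 with 1 library left out. Over all genes, 1619 were changed, 3280 with DESeq2, 759 and 653 with limma on the TPM, and 548 to 1623 with 1 library left out; the cause was not tested. Libraries of the same number hardly deviated together (r = -0.0226, 0.0759 and 0.0334), where those of different numbers had r from -0.103 to 0.0606. No pairing by number was seen, though so few libraries cannot show that there was none. With the replicate block 1328 genes were changed, 41 mitotic genes were lower (4.5% of all genes) and the median of the mitotic genes was -1.09. In the promoter window from 100 bases before the start, E2F letters were found in 0% of the mitotic genes, against 4.55% in the wider window. With 3 technical libraries a group, changes of low-count genes such as SGO1 are measured with wide errors.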
